A study of Mus musculus and Ochotona curzoniae and Rattus norvegicus with 18 samples.

Results

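The genes described here encode the end of the Hippo pathway: the coactivators YAP1 and WWTR1 (the protein known as TAZ), their DNA-binding partners TEAD1 to TEAD4, the kinases LATS1 and LATS2, and the target genes ANKRD1 and AMOTL2. They were chosen by symbol, with earlier results of these data known. All 10 were found in the pika and mouse tables, among 14420 genes joined between the 2 species, and all 10 passed the filter on low values. The RNA came from cultured fibroblasts of the Tibetan pika (Ochotona curzoniae) and of C57BL/6J mice, with 3 libraries per species. For both groups the labels give epidermis as the tissue, culture in DMEM with FBS under CO2, lysis at 90% confluency, and neither an age nor a treatment. Fibroblasts of SD rats and White New Zealand rabbits were sequenced too, but no table used here gives symbols for their gene identifiers, and they are not analysed here. The 6 ChIP-seq samples of the series are not analysed here either.

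In the Hippo pathway, the kinases LATS1 and LATS2 phosphorylate YAP1 and TAZ, which are then held in the cytoplasm or degraded. Unphosphorylated YAP1 and TAZ enter the nucleus and switch on genes through TEAD factors, which bind DNA where the coactivators do not. In fibroblasts the pathway responds to cell density, stiffness of the substrate and tension of the actin cytoskeleton. Much of this control acts on the proteins, and RNA levels do not show it. Several targets feed back on the pathway: LATS2 is itself induced by YAP1 and TAZ, and AMOTL2, an angiomotin family member, binds and restrains YAP1.

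TEAD factors recognise an element whose core reads GGAATG, or CATTCC on the other strand. The mouse promoters of the members were searched for both forms in the 250 bases before each start site, using RefSeq start sites on GRCm38.p6. Of the 10 members 8 had an entry, with 12 windows in all, and 5 of these 8 held the core in at least 1 window: Ankrd1, Amotl2, Wwtr1, Yap1 and Tead3. Over 32851 windows of all genes 12.6% held it, and 14.4% of genes did so in at least 1 window. The comparison is uneven and was not tested, since Ankrd1 and Amotl2 were included as targets and some members have several windows. Lats1, Lats2 and Tead2 had no match in their windows, and Tead1 and Tead4 had no entry. The windows of the 2 target genes and of the 2 coactivators are printed because the levels of these 4 genes carry the comparison. They run 5′ to 3′ on the strand of the gene, end at the base before the start site, and show the core in capitals.
Ankrd1, chr19:36119845-36120094, minus strand: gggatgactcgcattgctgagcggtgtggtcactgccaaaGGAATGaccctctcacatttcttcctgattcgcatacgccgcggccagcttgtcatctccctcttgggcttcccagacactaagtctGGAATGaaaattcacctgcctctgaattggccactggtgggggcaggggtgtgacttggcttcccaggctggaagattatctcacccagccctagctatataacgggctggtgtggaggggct
Amotl2, chr9:102717554-102717803, plus strand: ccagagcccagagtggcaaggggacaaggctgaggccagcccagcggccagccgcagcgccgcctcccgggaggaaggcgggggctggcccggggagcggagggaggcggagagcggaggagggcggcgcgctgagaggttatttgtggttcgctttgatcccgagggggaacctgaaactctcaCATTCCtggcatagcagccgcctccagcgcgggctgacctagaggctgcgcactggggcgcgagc
Wwtr1, chr3:57575911-57576160, minus strand: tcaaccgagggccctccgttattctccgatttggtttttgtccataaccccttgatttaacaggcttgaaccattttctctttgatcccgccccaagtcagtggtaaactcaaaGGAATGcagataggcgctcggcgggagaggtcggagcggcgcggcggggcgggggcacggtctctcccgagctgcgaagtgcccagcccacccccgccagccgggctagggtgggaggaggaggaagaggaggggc
Yap1, chr9:8004597-8004846, minus strand: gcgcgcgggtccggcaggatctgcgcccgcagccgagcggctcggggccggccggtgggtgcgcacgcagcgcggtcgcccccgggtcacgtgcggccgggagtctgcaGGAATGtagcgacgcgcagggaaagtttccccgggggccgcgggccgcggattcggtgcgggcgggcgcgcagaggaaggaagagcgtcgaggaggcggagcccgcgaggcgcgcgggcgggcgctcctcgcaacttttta
The core starts at positions -210 and -123 of Ankrd1, -65 of Amotl2, -136 of Wwtr1 and -141 of Yap1, counted back from the start site. Wwtr1 also has a start site slightly further downstream, in whose window the same core starts at -170. A match of these letters describes the sequence and is not evidence of binding. The promoters of the pika genes were not examined.

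The libraries were of different depth. The totals worked out from the FPKM values (fragments per kilobase of gene model, relative to the total reads of the library) were 7703576 to 8481030 reads in pika and 3663102 to 5758950 in mouse. The joined genes held 87.4% to 87.5% of the pika FPKM and 37.2% to 38.5% of the mouse FPKM, so each library was rescaled to a sum of 1000000 over these genes, and levels are given as rescaled FPKM. The 10 rows of highest FPKM held 39.1% to 41.0% of the mouse FPKM and 4.31% to 4.32% of the pika FPKM. In reads worked out, the joined genes held 73.0% to 75.1% of the mouse totals and 88.0% of the pika totals. A gene was called when its limma-trend adjusted p was under 0.05 and its log2 fold change, on the scale of log2(rescaled FPKM + 1), was 1 or more in size. Of 10350 tested genes 52.2% were called, 28.7% higher and 23.4% lower in pika. Higher genes made up 55.1% of calls on this scale, 48.9% with median-of-ratios scaling, 66.9% with a scale set on genes of nearly equal length and 84.5% without rescaling. Pika and mouse libraries did not overlap for 89.1% of genes, so separation of the 3 libraries from the 3 others is common. Species, genome and gene annotation cannot be told apart in this design. Whether the 3 libraries of a species derive from different animals is not stated in the labels, so p-values cover the spread among these libraries, which may be technical.

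Of the 10 members 1 was called higher in pika (YAP1), 5 lower (WWTR1, TEAD2, TEAD3, ANKRD1 and AMOTL2) and 4 were not called, beside the 28.7% higher and 23.4% lower of all genes. The median log2 fold change of the members was -1.005, and that of all tested genes 0.21. For each of the 10, the pika and mouse libraries did not overlap. WWTR1, TEAD2 and AMOTL2 were called lower in all 16 alternative fits that were run.

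**Figure D1:**
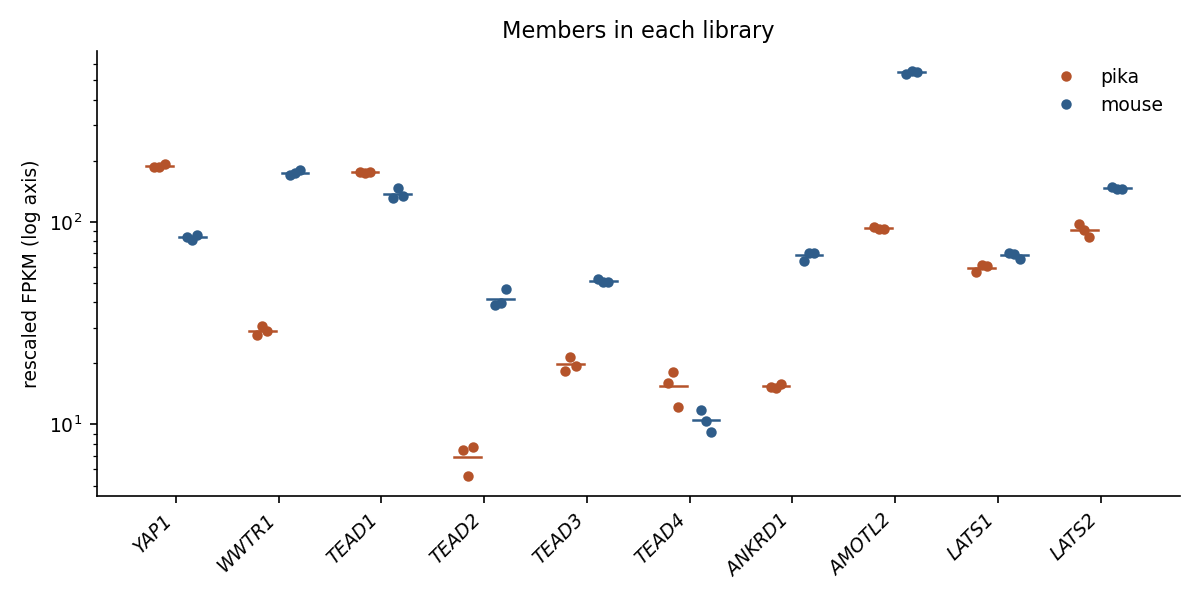
Rescaled FPKM (log axis) of the 10 members in each of 3 pika and 3 mouse libraries. Points are libraries and bars are means. WWTR1 lies at 27.6 to 30.5 in pika and 169 to 179 in mouse, while YAP1 lies at 186 to 194 in pika and 81.2 to 86.4 in mouse.

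The 2 coactivators differed in opposite directions. YAP1 stood at 187, 186 and 194 rescaled FPKM in the pika libraries, and at 84.1, 81.2 and 86.4 in mouse. Every pika library was thus above every mouse library, with means of 189 ± 4.17 and 83.9 ± 2.63 (SD, n = 3) and a 2.25-fold difference. The log2 fold change was 1.16 (SE 0.04, limma-trend adjusted p = 8.0e-09). This call is close to the fold minimum: with median-of-ratios scaling the log2 fold change was 0.98 and without division by gene length it was 0.57, neither of them a call. Set against the median of all genes, YAP1 was higher by 0.95 on the main scale and by 0.54 without gene length. Mouse Yap1 spans 7931999 to 8004638 on chromosome 9 (GRCm38).

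WWTR1 was at 27.6, 30.5 and 29.0 rescaled FPKM in pika and at 169, 173 and 179 in mouse. The mouse libraries were all far above the pika ones, a 5.99-fold difference in means (29.0 ± 1.48 and 174 ± 5.06; SD, n = 3), and the log2 fold change was -2.54 (SE 0.06, limma-trend adjusted p = 3.3e-10). It lay between -2.72 and -1.23 over the alternatives. These levels rested on 749 reads over the pika libraries and 2228 over the mouse libraries, and those of YAP1 on 6350 and 2089. Mouse Wwtr1 spans 57455644 to 57575910 on chromosome 3.

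The ratio of the coactivators within a library does not depend on how libraries are scaled. WWTR1 relative to YAP1 was 0.148, 0.164 and 0.150 in pika against 2.01, 2.14 and 2.08 in mouse. YAP1 was thus the more abundant transcript per length in each pika library and WWTR1 in each mouse library. The log2 ratio was -2.70 ± 0.08 in pika against 1.05 ± 0.04 in mouse (SD, n = 3), a difference of -3.75. An exact two-sided permutation test gave p = 0.10, the smallest that 3 against 3 libraries allow, and 0.10 after adjustment over the 6 ratios and shares tested. In reads, without gene length, the ratio was 0.118 ± 0.007 in pika against 1.07 ± 0.03 in mouse.

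By the rule for likeness (smallest distance on the log2 scale over the 6 libraries, which are 2 groups of 3), the tested genes nearest to YAP1 were OLA1 (distance 0.04), NID2 (0.17) and AP1M1 (0.19). OLA1 was at 189 ± 2.54 rescaled FPKM in pika against 83.4 ± 2.98 in mouse. Nearest to WWTR1 were ZFP36L1 (0.26), SNAI2 (0.27) and ADD3 (0.36). SNAI2, a transcription factor of mesenchymal cells, was at 31.6 ± 1.11 and 172 ± 4.002. Within a distance of 1 lay 318 genes for YAP1 and 46 for WWTR1.

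Among the TEAD factors, TEAD1 was the most abundant in both species and had the smallest log2 fold change. It was at 177, 173 and 176 rescaled FPKM in pika against 132, 146 and 134 in mouse. The pika libraries were higher by 1.28-fold in means, and the log2 fold change of 0.36 (SE 0.05, limma-trend adjusted p = 7.9e-05) stayed under the fold minimum. This direction depends on gene length: without division by it the log2 fold change was -1.02, and TEAD1 was called lower in pika. The pika model had 2517 bases and the mouse model 13570, the largest ratio of model lengths among the members (5.39). Reads over the 3 libraries were nearly equal, 4992 in pika against 4951 in mouse.

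TEAD2, an early embryonic member of the family, was at 7.504, 5.60 and 7.74 rescaled FPKM in pika against 38.9, 39.7 and 46.6 in mouse. All mouse libraries lay above all pika libraries, with a log2 fold change of -2.43 (SE 0.14, limma-trend adjusted p = 1.2e-07). The pika level rested on 114 reads. TEAD3 was at 18.5, 21.6 and 19.5 in pika against 52.5, 50.7 and 50.3 in mouse, again without overlap. Its log2 fold change of -1.33 (SE 0.08, limma-trend adjusted p = 2.6e-07) lost the call without rescaling (-0.07) and with the scale set on genes of nearly equal length (-0.98).

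TEAD4 was the TEAD gene of lowest level in mouse. It stood at 16.0, 18.1 and 12.2 rescaled FPKM in pika against 11.8, 10.4 and 9.17 in mouse. The lowest pika library was only just above the highest mouse library, and the log2 fold change of 0.51 (SE 0.16, limma-trend adjusted p = 0.015) was not a call. The reads worked out behind the mouse level were only 51 over 3 libraries, against 350 in pika. Such counts can be too small by a factor shared with the gene length, which would also move the fold change without gene length. TEAD4 was called higher without gene length (1.70) and without rescaling (1.44).

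As shares of the summed TEAD level within a library, TEAD1 made up 80.6% ± 1.22 in pika against 56.98% ± 1.91 in mouse (SD, n = 3). TEAD2 made up 3.19% ± 0.55 in pika against 17.4% ± 1.83 in mouse, and TEAD3 9.12% ± 0.73 and 21.3% ± 0.94. TEAD4 had 7.07% ± 1.32 in pika against 4.36% ± 0.62 in mouse. The pika TEAD pool was therefore more dominated by TEAD1, and TEAD2 and TEAD3 had smaller shares in each pika library than in any mouse library. Each of the 4 shares gave p = 0.10 by the exact two-sided permutation test, the smallest possible, and 0.10 adjusted. In reads without gene length the TEAD1 share was 86.4% ± 1.10 in pika against 80.7% ± 1.26 in mouse, a gap of 5.67 percentage points in place of 23.6. The 4 TEAD genes are paralogues, and the sources used here do not give how the authors' counting treated reads that match more than 1 of them.

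**Figure D2:**
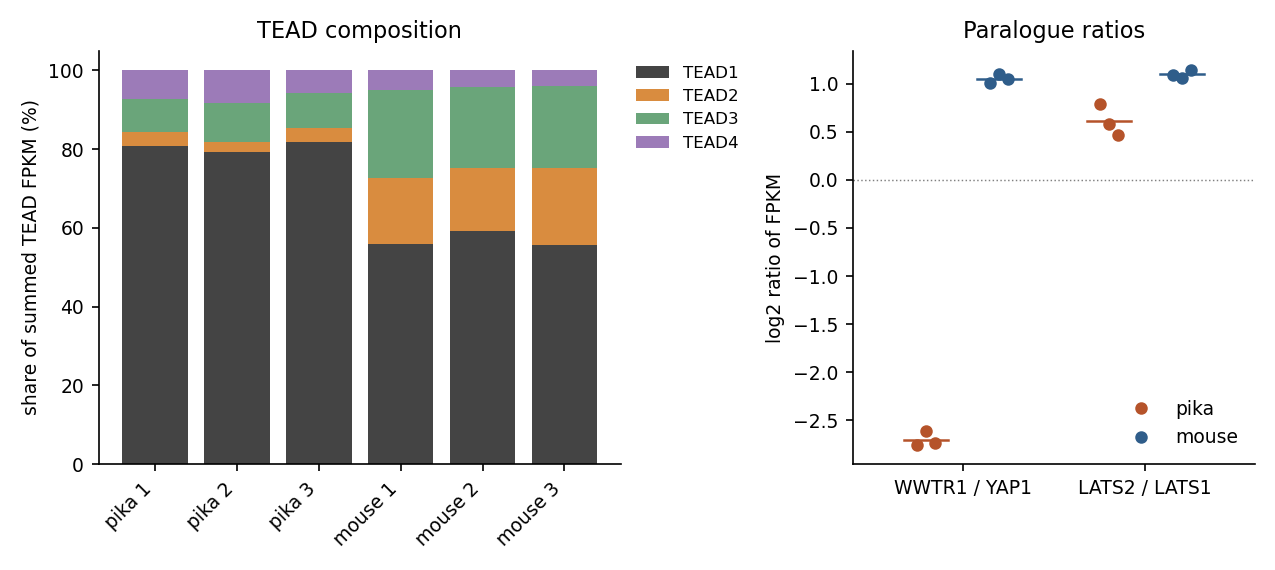
Left, share (%) of each TEAD gene in the summed TEAD FPKM of a library, for 3 pika and 3 mouse libraries. Right, log2 ratio of FPKM within each library, with points for libraries and bars for means. TEAD1 takes 79.3% to 81.7% in pika and 55.7% to 59.2% in mouse, and the log2 WWTR1 to YAP1 ratio is below 0 in pika and above 0 in mouse.

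Neither kinase gene, LATS1 or LATS2, was called. LATS1 was at 56.2, 61.2 and 60.7 rescaled FPKM in pika against 69.8, 69.6 and 65.7 in mouse. The groups did not overlap, but the log2 fold change was only -0.20 (SE 0.06, limma-trend adjusted p = 0.011). Its sign turned without rescaling (1.03), with the scale on genes of nearly equal length (0.16) and without gene length (0.12). The first 2 of these move all genes alike. Relative to the median of all genes LATS1 was lower on each of the 4 FPKM scales (-0.42 on the main scale, -0.42 with median-of-ratios scaling, -0.40 on genes of nearly equal length and -0.25 without rescaling) and at 0.09 in reads without gene length. Its direction thus depends on gene length.

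LATS2 was at 97.4, 91.3 and 83.7 rescaled FPKM in pika against 149, 145 and 146 in mouse. It was lower in each pika library, with a log2 fold change of -0.68 (SE 0.06, limma-trend adjusted p = 2.7e-06) under the fold minimum, and 0.58 without rescaling. Within libraries LATS2 exceeded LATS1 in both species, with a ratio of 1.73, 1.49 and 1.38 in pika against 2.13, 2.08 and 2.21 in mouse. The log2 ratio differed by -0.49 between species (exact two-sided permutation p = 0.10, the smallest possible; adjusted 0.10). In reads without gene length the ratio was 1.11 ± 0.13 in pika against 2.14 ± 0.07 in mouse (SD, n = 3), so that LATS2 was little above LATS1 in pika, and the log2 gap was -0.95. In pika the ratio of levels varied more between libraries, with an SD of 0.17 against 0.05 on the log2 scale.

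ANKRD1 and AMOTL2, the members included as targets, were both called lower in pika. ANKRD1, a cardiac and skeletal muscle ankyrin repeat protein and a common readout of YAP1 activity, was at 15.3, 15.2 and 15.9 rescaled FPKM in pika against 64.0, 70.1 and 70.4 in mouse. The groups were well apart, at a 4.42-fold difference and a log2 fold change of -2.07 (SE 0.08, limma-trend adjusted p = 6.3e-09). The call was lost without rescaling (-0.77) and without gene length (-0.92), which kept the direction. The mouse model had 1765 bases and the pika model 1986, so that ANKRD1 and TEAD4 were the members with the shorter model in mouse.

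AMOTL2 had the highest level of the 10 in mouse, at 533, 555 and 551 rescaled FPKM, and stood at 93.8, 92.1 and 92.3 in pika. The difference was 5.89-fold, with a log2 fold change of -2.55 (SE 0.03, limma-trend adjusted p = 1.9e-11). It lay between -2.82 and -1.25 over the alternatives. With 2663 reads in pika against 9193 in mouse, it is the member whose difference was measured with the smallest SE. In mouse, Ankrd1 lies on chromosome 19 from 36111965 to 36119844 and Amotl2 on chromosome 9 from 102717091 to 102733418.

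The order of levels per length differed between the species. In pika it ran YAP1, TEAD1, AMOTL2, LATS2, LATS1, WWTR1, TEAD3, ANKRD1, TEAD4, TEAD2. The ranges of AMOTL2 and LATS2 overlapped, as did those of ANKRD1 and TEAD4, and the other neighbours did not overlap. In mouse the order was AMOTL2, WWTR1, LATS2, TEAD1, YAP1, LATS1, ANKRD1, TEAD3, TEAD2, TEAD4, with overlap between LATS2 and TEAD1 and between LATS1 and ANKRD1. YAP1 was above 92.6% of the joined genes in pika and above 83.5% in mouse, and WWTR1 above 58.9% and 92.6%.

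**Figure D3:**
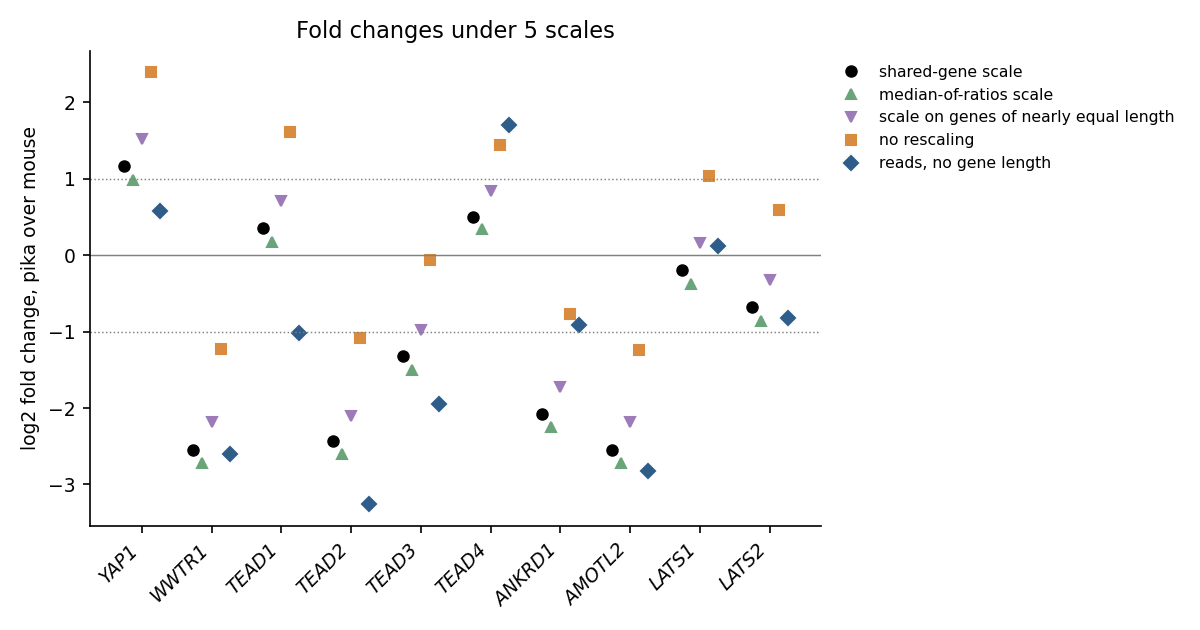
Log2 fold change of pika over mouse for each member under 4 scales of FPKM and in reads without gene length. The solid line marks 0 and the dotted lines the fold minimum. WWTR1, TEAD2 and AMOTL2 lie below -1 with each of the 5, while LATS1 lies on both sides of 0.

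The scale moves all genes together. The median of all tested genes was 0.21 on the main scale and shifted by -0.17 with median-of-ratios scaling, 0.34 with the scale on genes of nearly equal length and 1.07 without rescaling. Relative to that median WWTR1 was at -2.76 on the main scale, -2.76 with median-of-ratios scaling, -2.75 on genes of nearly equal length and -2.52 without rescaling. AMOTL2 was at -2.76, -2.77, -2.74 and -2.53, and YAP1 at 0.95, 0.94, 0.96 and 1.11. LATS2 stayed below the median in the same 4 fits, at -0.90, -0.91, -0.88 and -0.70.

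The rest of the pathway was described from lists of its other genes. Of 23 tested genes of the kinase cassette upstream of LATS (the MST kinases STK3 and STK4, their adaptors, and related kinases and scaffolds), 6 had a call for higher and 4 for lower expression in pika, and 13 had none (26.1% higher and 17.4% lower, beside 28.7% and 23.4% of all genes). The median log2 fold change was 0.61, and without gene length it was 0.11, beside 0.04 over all genes. WWC2, a scaffold that promotes LATS phosphorylation, was at 281 ± 3.61 rescaled FPKM in pika against 53.5 ± 3.31 in mouse (log2 fold change 2.37). The kinase TNIK was also higher (2.76), on 26 reads in mouse. RASSF2 and RASSF5, scaffolds that bind MST kinases, were lower. RASSF2 was above 0 in a single pika library and at 22.2 ± 0.40 in mouse, and RASSF5 was at 1.46 ± 0.49 and 20.8 ± 3.68.

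STRIPAK, a phosphatase complex that removes activating phosphates from MST kinases, had 12 tested genes, with 6 higher, 1 lower and 5 without a call. That was 50% higher and 8.3% lower, beside 28.7% and 23.4% of all genes. The median log2 fold change was 0.62. STK26, a kinase bound to the complex, was at 20.4 ± 0.30 rescaled FPKM in pika against 2.39 ± 0.99 in mouse (log2 fold change 2.70). The scaffold STRN4 (1.79) and the adaptor MOB4 (1.38) were higher too, but neither call held without gene length (0.01 and -0.70). The kinase STK24 was the gene called lower (-2.27). Without gene length 2 genes of this list were called higher and 2 lower, and the median was 0.01, beside 0.04 over all genes. That fit called 2682 of 10143 genes higher and 2870 lower.

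Among 22 tested binding partners of YAP1, TAZ and TEAD, 4 were called higher and 4 lower, 14 had no call, and the median was -0.27. The calls were 18.2% in each direction, beside 28.7% higher and 23.4% lower of all genes. PTPN14, not called, is also in the list of target genes below. Without gene length 4 were called higher and 7 lower (median -0.54), beside 2682 higher and 2870 lower of 10143 genes (median 0.04). YWHAH, a 14-3-3 protein, was called higher in pika (log2 fold change 1.65), but not without gene length (0.48). AMOT, the founding angiomotin, was at 29.9 ± 1.64 rescaled FPKM in pika against 97.2 ± 2.42 in mouse (-1.67), lower like its relative AMOTL2. SFN, the epithelial 14-3-3 protein, was lower (-2.51) on 9 reads in pika. Of 11 tested genes of the FAT-Dachsous and polarity group 3 were called higher (27.3%), 4 lower (36.4%) and 4 not called. Over all genes 28.7% were higher and 23.4% lower. The median of the group was -0.39. The sign of this median turned without gene length (0.23), and it was -1.27 with the filter at 5 FPKM, which the 3 genes called higher (FAT3, DCHS1 and DCHS2) did not pass. FAT4, a giant cadherin upstream of the pathway, was at 12.7 ± 0.61 in pika against 87.5 ± 3.50 in mouse (log2 fold change -2.69), and the polarity scaffold DLG5 was lower too (-1.61). DCHS1, the ligand of FAT4, was higher in pika (2.01), on 20 reads in mouse, as was FAT3 (1.93), on 7.

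Of 16 further target genes of YAP1 and TAZ tested, 2 were called higher in pika, 9 lower and 5 not called, beside 28.7% higher and 23.4% lower of all genes. Their median log2 fold change was -1.30, against 0.21 over all genes. Without rescaling 6 were called higher and 4 lower, beside 6030 higher and 1106 lower of 10350 genes. Without gene length 4 were called higher and 9 lower (median -1.15), beside 2682 and 2870 of 10143 genes (median 0.04). IGFBP3 had no reads worked out in pika and was left out of the fit without gene length. F3, the tissue factor gene that starts coagulation, was at 50.9 ± 3.95 rescaled FPKM in pika against 1387 ± 10.3 in mouse (log2 fold change -4.74). IGFBP3, which binds insulin-like growth factors, was above 0 in a single pika library and at 52.7 ± 5.32 in mouse. FOXF2, a mesenchymal transcription factor, was listed at 0 in all 3 pika libraries, with 13.1 ± 4.75 in mouse. TGFB2, a TGF-beta ligand, ran the other way, at 289 ± 14.9 in pika against 25.05 ± 0.75 in mouse (log2 fold change 3.48).

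CCN1 and CCN2, the matricellular genes known as CYR61 and CTGF, are textbook targets of the pathway. Both are already among the target genes counted above, and they were named after their values were seen. CCN1 was at 912, 898 and 885 rescaled FPKM in pika against 3513, 3536 and 3688 in mouse. Its log2 fold change was -1.99 (SE 0.03, limma-trend adjusted p = 1.6e-11), and -0.70 without rescaling, which was no call. CCN2 was at 2773, 2740 and 2750 in pika against 2427, 2483 and 2500 in mouse. Its log2 fold change of 0.16 was not a call, and it was called higher without rescaling (1.45).

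**Figure D4:**
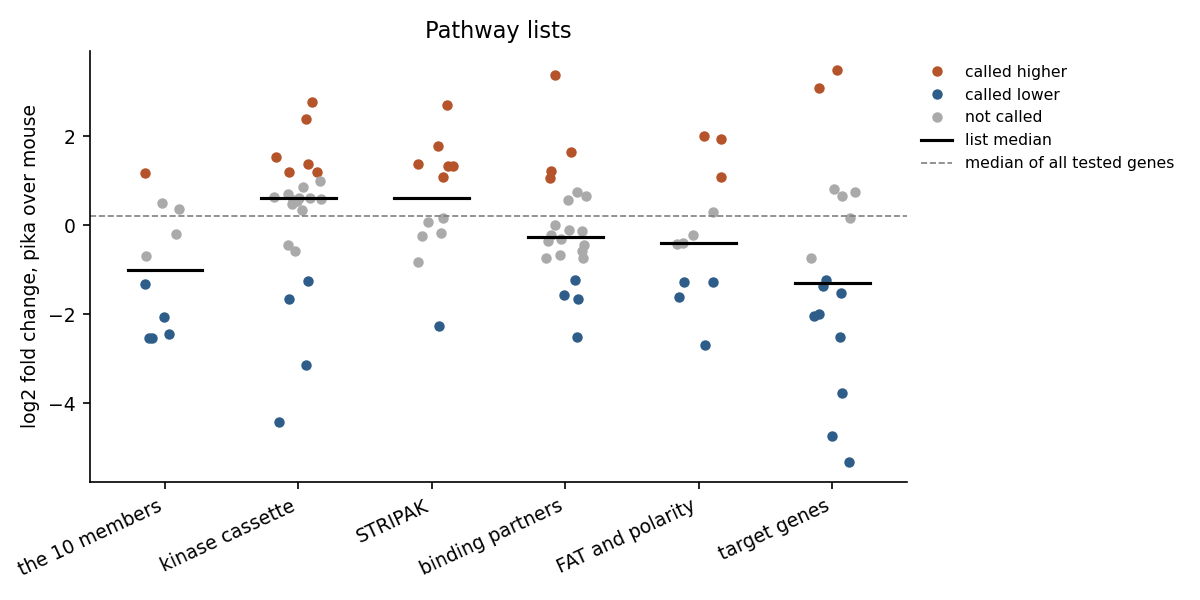
Log2 fold change of pika over mouse for each tested gene of the 10 members and of 5 lists of other pathway genes. Points are genes, coloured by call, black bars are list medians and the dashed line is the median of all tested genes (0.21). The target genes have the lowest median (-1.30) and the kinase cassette and STRIPAK lists lie above the dashed line on this scale (0.61 and 0.62), but at 0.11 and 0.01 without gene length, where all genes have a median of 0.04.

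The labelled cell type was checked on marker genes. The 10 joined fibroblast markers summed to 11130 to 11527 rescaled FPKM in pika and 13828 to 14216 in mouse, mostly from COL1A1 and VIM, neither of which was called. Single markers differed widely, with 4 called lower in pika (40%), 2 higher (20%) and 4 not called, beside 23.4% lower and 28.7% higher of all genes. The collagen COL3A1 was at 22.8 ± 1.43 in pika against 949 ± 16.1 in mouse (-5.32 in log2 fold change), and the receptor PDGFRA at 3.46 ± 0.34 against 64.7 ± 4.19 (-3.88). COL5A1 (-1.68) and PDGFRB (-1.04) were lower too. FAP, a surface protease, was at 41.5 ± 0.96 in pika and near 0 in mouse (1.22 ± 0.66, on 20 reads), and DCN was also higher in pika (1.22). LUM was low in both, at 14.8 ± 0.48 and 9.99 ± 0.63. Although the labels give epidermis, the keratinocyte and epithelial genes KRT5, KRT14, CDH1 and EPCAM were near 0 in both species. KRT1, TP63 and DSG3 were not among the joined genes and could not be examined. Of 7 joined keratinocyte markers 5 were at 0 in every pika library (KRT5, KRT14, KRT10, CDH1 and EPCAM), and in mouse KRT5 and KRT14 were each above 0 in a single library. That list summed to 1.14 to 1.24 in pika and 56.7 to 63.8 in mouse. DSP led it in mouse (44.9 ± 2.20), with SFN at 10.7 ± 1.54 and KRT10 at 5.01 ± 0.56. The 11 muscle and pericyte markers summed to 67.0 to 80.2 in pika and 141 to 152 in mouse. Of those that passed the filter, MYH11 (log2 fold change -2.58), NOTCH3 (-4.52) and RGS5 (-2.51) were called lower in pika. MCAM was called higher (1.02), and CSPG4, at 19.1 ± 1.54 in pika against 13.8 ± 0.92 in mouse, was not called. The muscle factors MYOD1 and MYOG were under 1 in every library. The 7 endothelial markers summed to 0.894 to 2.55 in pika and 32.5 to 39.3 in mouse, where TEK alone was at 31.2 ± 3.92. EMCN, CDH5, KDR and PECAM1 were at 1.22, 1.21, 1.17 and 0.93 in mouse. VWF and ERG were under 1 in every library. The 6 leukocyte markers summed to 14.4 to 15.2 in pika and 31.1 to 41.4 in mouse. CD14 led in pika (10.8 ± 0.31) and CD68 in mouse (15.7 ± 6.22), where CSF1R was at 12.2 ± 1.59. PTPRC, CD3E and CD79A were near 0 in both species. Whether other cell types have a part in the differences of the members was not tested. In bulk RNA fewer cells of a type and less RNA per cell cannot be told apart.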

How the data were processed

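RNA-seq of 3 pika and 3 mouse libraries was used, as FPKM values per gene that the authors deposited, with 1 file per library. The submitters' processing notes list CASAVA 1.9, STAR 2.6.1a, featureCounts, edgeR 3.28.1 and GRCm38, without roles. Gene annotations are not given in the sources used here. Mouse identifiers were paired with symbols for 49326 of 49585 rows. A symbol present a single time in each table joined 14418 genes, and CCN1 and CCN2 were joined by their older symbols.

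Libraries were rescaled to a sum of 1000000 over joined genes. A gene was fitted if its deposited FPKM averaged 1 or more in either species. The fit was limma-trend (limma 3.58.1 under R 4.3.3) of log2(value + 1) on species, two-sided, with Benjamini-Hochberg adjustment over all 10350 genes. This pseudocount understates the change of low genes. Whole reads, gene lengths and totals were worked out from the steps of the FPKM values, and a gene's reads and length can both be too small by a shared factor. Replicate pairs differed by more than sampling (mean chi-square per gene 1.17 to 1.55, where sampling gives about 1). Both the recovery and the fit were tested on simulated data. Other tools were Python 3.11.15, numpy 2.4.6 and pandas 2.3.3.

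The members, lists and alternatives were chosen with earlier results of these data known. The text names all members, up to 4 called genes of each pathway list with the largest fold change (up to 2 more of high level where fewer than 2 were called), the 3 genes nearest to YAP1 and to WWTR1, and the 2 highest markers of a list in each species. 1 gene that this rule selects is not reported here. Other markers and CCN1 and CCN2 were named after their values were seen. Alternatives covered scaling, pseudocount, filter, the limma trend, gene length, the replicate block and each library left out.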

Additional observations from a re-analysis of the deposited data

How the results depend on the processing

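WWTR1, TEAD2, AMOTL2 and LATS2 kept their main call, or its absence, in all 16 alternatives, although LATS2 changed sign without rescaling (0.58). Over the members, 146 of the 160 alternative values kept their direction and their side of the threshold. Members called higher numbered 1 in the main fit, 0 with median-of-ratios scaling, where YAP1 was just short of the minimum (0.98), and 4 without rescaling (YAP1, TEAD1, TEAD4 and LATS1), and members called lower went from 5 to 3. Over all genes, 6030 were called higher and 1106 lower without rescaling, against 2975 and 2426, and 1577 lower with the filter at 5 FPKM, where fewer genes were tested. Without gene length TEAD4 was called higher and WWTR1, TEAD1, TEAD2, TEAD3 and AMOTL2 lower. That fit called 2682 of 10143 genes higher and 2870 lower. Signs turned without gene length for TEAD1 (-1.02), LATS1 (0.12) and MOB4 (-0.70), without rescaling for LATS1 (1.03), and with the scale on genes of nearly equal length, chosen after seeing the data, for LATS1 (0.16). CCN2, not called on either scale, turned to -0.023 with median-of-ratios scaling. For these the cause was not tested. Leaving out any 1 library changed no call of a member, and the log2 fold change of YAP1 then lay between 1.14 and 1.18 and that of WWTR1 between -2.58 and -2.51.

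The labels number the libraries of both species 1 to 3, but the number pairs nothing known: deviations of same-numbered libraries correlated at -0.009, 0.048 and 0.009. With the replicate number as a block 2977 genes were called higher and 2426 lower, no member changed its call, and the ratios and shares reached p = 0.25, the smallest that swapping labels within 3 pairs allows in an exact test. Depth limits TEAD4 most, with 51 reads in mouse.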

Other observations

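These values were singled out after the data were seen and carry no test. The summed level of YAP1 and WWTR1 was more alike between species than either gene, at 214, 217 and 223 rescaled FPKM in pika against 253, 255 and 266 in mouse. The 4 TEAD genes together stood at 219, 219 and 215 in pika against 235, 247 and 240 in mouse. Coactivator level per TEAD level, a ratio within each library, was 1.00 ± 0.03 in pika and 1.07 ± 0.04 in mouse (SD, n = 3). This near equality depends on gene length: in reads the ratio was 1.23 ± 0.03 in pika against 0.699 ± 0.04 in mouse, the opposite order. Without rescaling both sums were higher in pika, at 101 ± 2.02 against 48.9 ± 1.81 deposited FPKM for the coactivators and 101 ± 0.93 against 45.6 ± 1.46 for the TEAD genes.

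The order of the 2 matricellular targets per length also differed between the species. CCN2 relative to CCN1 was 3.04, 3.05 and 3.11 in the pika libraries and 0.691, 0.702 and 0.678 in mouse. In reads without gene length this ratio was 3.58 ± 0.04 in pika and 0.978 ± 0.02 in mouse (SD, n = 3), so the species stayed apart on either scale.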
